A study of Mus musculus with 12 samples.

Results

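The 10 genes described here belong to the signalling that drives exercise-induced growth of the heart and were followed in cardiomyocytes of adult mice with and without desmin. They are Igf1, Igf1r, Pik3ca, Akt1, Akt2, Cebpb, Cited4, Nrg1, Erbb2 and Erbb4. The members were chosen by symbol, with earlier results of these data known. All 10 were found among the 21493 genes listed for every library and were tested. Poly-A RNA was sequenced from 12 libraries in 4 groups of 3: Des+/+ mice that had not swum (Des+/+ non-swim), Des+/+ mice that had (Des+/+ swim), Des-/- mice that had not swum (Des-/- non-swim) and Des-/- mice that had (Des-/- swim). Des encodes desmin, the intermediate filament protein of muscle. All mice were 3 months old and, by the study's methods, all were of the 129SV background and carried the αMHC-GFP transgene, in which the promoter of cardiac myosin heavy chain drives green fluorescent protein; the loss of desmin was constitutive. The study's methods state that the cells of several mice were combined for every library, so a replicate stands for pooled animals. What the swimming consisted of is described by reference to earlier work and is not detailed here.

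Insulin-like growth factor 1 (Igf1) is a secreted peptide that binds its receptor tyrosine kinase (Igf1r). The receptor recruits phosphoinositide 3-kinase, whose catalytic subunit p110α is the product of Pik3ca, and this activates the kinases Akt1 and Akt2, which promote growth, survival and glucose uptake of the cardiomyocyte. Endurance exercise such as swimming is known for driving this pathway, and for lowering the transcription factor C/EBPβ (Cebpb) while raising the transcriptional co-regulator Cited4. Neuregulin 1 (Nrg1), made in the heart mainly by endothelial cells, binds the receptor Erbb4 on cardiomyocytes, which signals together with Erbb2.

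Libraries held 4320819 to 12072443 reads in genes, and a further 34.0% to 64.5% of counted reads fell in no gene, with the lowest shares in the Des+/+ non-swim libraries and in Des-/- non-swim replicate 3. Levels below are CPM, the reads of a gene scaled to a common library total after TMM scaling, with no correction for gene length. Desmin itself was 972 to 3645 CPM in the Des+/+ libraries and 50.2 to 100.4 CPM in the Des-/- libraries, as the labels state. Markers of cell types did not stay level. The summed CPM of 12 cardiomyocyte genes was 71628 to 107188 in the Des+/+ non-swim, 34758 to 56902 in the Des+/+ swim, 6915 to 32300 in the Des-/- non-swim and 17230 to 28843 in the Des-/- swim group. That of 12 fibroblast genes was 6417 to 7719, 5602 to 6961, 13074 to 43870 and 8999 to 17103 in the same order. The 12 macrophage genes summed to 258 to 377 CPM over both Des+/+ groups and to 279 to 749 CPM in replicates 1 and 2 of both Des-/- groups, but to 4414 and 1452 CPM in replicate 3 of the Des-/- non-swim and swim groups. Of 12 genes of the response to cell isolation, 10 passed as higher in Des-/- mice without and 8 after swimming (edgeR adjusted p under 0.05), beside 14.0% and 5.01% of all genes. Of 9 mural cell genes 1 passed, as lower, without swimming and 0 after it, beside 32.0% and 10.6% of all genes. The mural genes summed to 4394 to 5986 CPM in the Des+/+ non-swim and 3351 to 4093 CPM in the Des-/- non-swim group. After swimming the sums were 4363 to 5684 CPM in Des+/+ and 2685 to 6115 CPM in Des-/- mice. No marker was at 0 in any group. The 2 replicate 3 libraries of the Des-/- groups stood apart from the others of their groups, and each result that rests on them is also given without both. In bulk RNA, fewer cells of a type and less RNA per cell cannot be told apart.

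**Figure D1:**
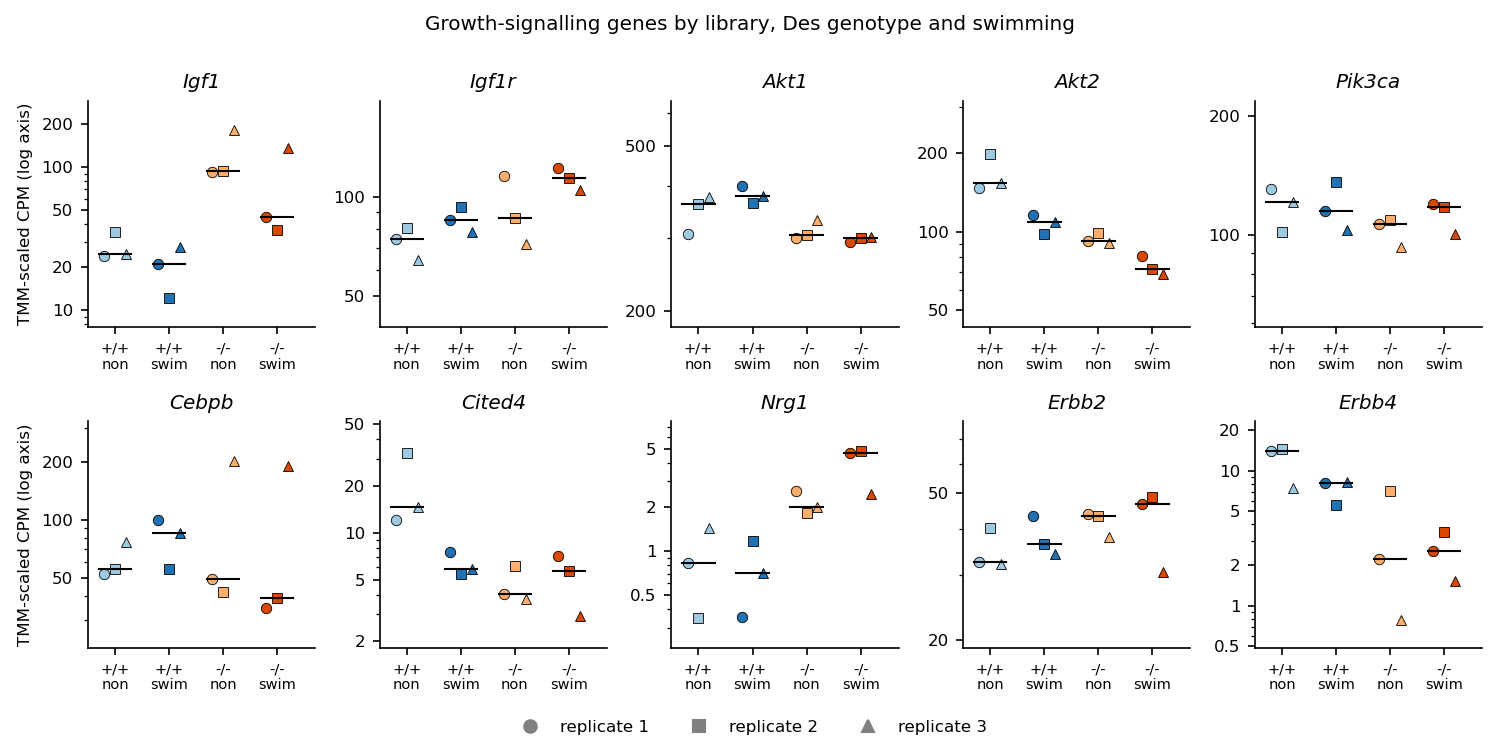
TMM-scaled CPM of each gene in each of the 12 libraries on log axes, with the 4 groups along the horizontal axis, the replicate number as the marker shape and the group median as a line. All 6 Des-/- libraries lie above all 6 Des+/+ libraries for Igf1 (36.5 against 35.2 CPM at the closest) and Nrg1 (1.81 against 1.44 CPM). How many of all genes separate in this way was not counted. For Cebpb, replicate 3 lies far above the other Des-/- libraries.

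The first comparison asks how the loss of desmin changed these genes in mice that had not swum. Of the 10 genes, 4 differed between Des-/- and Des+/+ mice: Igf1 was higher, and Akt2, Cited4 and Erbb4 were lower. The other 6 did not pass the test (edgeR quasi-likelihood, Benjamini-Hochberg adjusted p under 0.05 over 13158 genes), with log2 changes from -0.19 to 1.24. Over all genes tested 32.0% passed, 14.0% higher and 18.0% lower, so the share among the 10 genes was near the background. Upper-quartile scaling turned the split of all called genes from 1840 higher and 2370 lower to 2492 and 2034, and called the same 4 of the 10 genes in the same directions. Groups did not overlap for 5 of the 10 genes and for 47.9% of all genes. Leaving out both Des-/- replicate 3 libraries left 4 calls, with Igf1r in place of Erbb4, where 28.0% of all genes passed.

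The windows shown next are the 250 bases before a RefSeq start site of each of the 4 genes that differed (RefSeq, GRCm38.p6). They are given so that a reader can see the sequence before that site. They are chr10:87860861-87861110 (plus strand) for Igf1, chr7:27591302-27591551 (plus strand) for Akt2, chr4:120666313-120666562 (plus strand) for Cited4 and chr1:69108060-69108309 (minus strand) for Erbb4, each written 5′ to 3′ in the direction of transcription. Akt2 has 4 start sites in RefSeq, of which that at the gene's annotated start is shown. The Igf1 window is the only one found for this gene. It lies inside the annotated gene, downstream of its annotated start at 87858265, so the sequence before that start is not shown. Capitals mark 3 motifs searched on both strands: the core of a C/EBP site (TTNNGNAA), the GC box (GGGCGG) and the TATA box (TATAAA).
Igf1 promoter: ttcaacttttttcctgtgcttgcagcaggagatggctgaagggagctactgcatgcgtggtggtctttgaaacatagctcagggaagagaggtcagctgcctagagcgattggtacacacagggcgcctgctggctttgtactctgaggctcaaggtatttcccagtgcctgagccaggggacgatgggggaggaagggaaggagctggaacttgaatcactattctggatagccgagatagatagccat
Akt2 promoter: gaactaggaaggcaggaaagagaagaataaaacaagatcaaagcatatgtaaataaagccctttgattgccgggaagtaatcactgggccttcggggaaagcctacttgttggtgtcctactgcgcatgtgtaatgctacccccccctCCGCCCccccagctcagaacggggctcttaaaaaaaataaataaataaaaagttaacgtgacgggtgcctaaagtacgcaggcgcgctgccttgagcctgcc
Cited4 promoter: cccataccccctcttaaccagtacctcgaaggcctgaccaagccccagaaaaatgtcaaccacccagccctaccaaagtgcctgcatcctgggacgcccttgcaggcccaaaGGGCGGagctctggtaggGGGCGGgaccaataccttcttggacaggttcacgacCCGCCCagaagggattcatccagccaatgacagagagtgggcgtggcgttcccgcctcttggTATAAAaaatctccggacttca
Erbb4 promoter: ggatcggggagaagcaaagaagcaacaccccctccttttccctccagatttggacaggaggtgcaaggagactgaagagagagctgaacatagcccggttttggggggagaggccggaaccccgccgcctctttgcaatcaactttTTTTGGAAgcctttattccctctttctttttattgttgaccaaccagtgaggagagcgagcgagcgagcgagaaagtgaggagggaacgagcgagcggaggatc
Cited4 held 3 GC boxes and a TATA box that spans positions -22 to -17 from its start, Akt2 held 1 GC box, Erbb4 held 1 C/EBP core, and none of the 3 motifs was in the Igf1 window. Over 32851 promoter windows of the same length, 36.8% held the C/EBP core, 32.7% the GC box and 12.4% the TATA box. The GC content of the windows was 52.8% for Igf1, 48.8% for Akt2, 58.0% for Cited4 and 54.0% for Erbb4, against a median of 52.4%.

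Igf1 (ENSMUSG00000020053, chr10:87858265-87937042, plus strand, GRCm38), the ligand of the pathway, was 23.8, 35.2 and 24.7 CPM in the Des+/+ non-swim libraries and 92.7, 93.7 and 181 CPM in the Des-/- non-swim libraries. The groups did not overlap, and replicate 3 of the Des-/- group was the highest of all 12 libraries. The mean rose from 27.9 ± 6.31 to 123 ± 50.9 CPM (SD, n = 3 each), a 4.402-fold difference (log2 2.14, SE 0.49, edgeR adjusted p = 0.00782). It remained called whichever library was left out, with log2 changes of 1.75 to 2.34, and was 1.81 with both Des-/- replicate 3 libraries left out (edgeR adjusted p = 0.00112). Fibroblast markers, 10 of 12 of which were higher in the Des-/- non-swim group, and macrophage markers, 9 of 12, moved in the same direction, and their part in the Igf1 result was not tested.

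Igf1r (ENSMUSG00000005533, chr7:67952827-68233668, plus strand), the receptor, was 74.3, 80.2 and 64.1 CPM in the Des+/+ and 115, 85.9 and 71.9 CPM in the Des-/- non-swim libraries. The groups overlapped, and the log2 change of 0.32 (SE 0.17) did not pass (edgeR adjusted p = 0.167). With both Des-/- replicate 3 libraries left out it was 0.54 and passed (edgeR adjusted p = 0.0291). Without Des-/- non-swim replicate 3 alone it was 0.47 and did not pass (edgeR adjusted p = 0.0649). It was called in 0 of 12 fits that left out 1 library. Pik3ca (ENSMUSG00000027665, chr3:32397671-32468486, plus strand), the catalytic subunit downstream of the receptor, was 102 to 131 CPM in the Des+/+ and 93.5 to 109.6 CPM in the Des-/- non-swim libraries, with a log2 change of -0.19 (SE 0.15). Neither it nor Akt1 passed.

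The 2 Akt genes, which encode closely related kinases, did not move alike. Akt1 (ENSMUSG00000001729, chr12:112653821-112674884, minus strand) was 306, 362 and 375 CPM in the Des+/+ and 299.7, 305 and 332 CPM in the Des-/- non-swim libraries, a log2 change of -0.15 (SE 0.13, edgeR adjusted p = 0.375). Akt2 (ENSMUSG00000004056, chr7:27591552-27640826, plus strand), the isoform best known for insulin-stimulated glucose uptake, was 148, 198 and 154 CPM in the Des+/+ and 91.8, 99.1 and 90.9 CPM in the Des-/- non-swim libraries. The highest Des-/- value lay below the lowest Des+/+ value, and the mean was 167 ± 27.4 against 94.0 ± 4.48 CPM (SD, n = 3 each). The difference was 1.77-fold lower in Des-/- (log2 -0.83, SE 0.14, edgeR adjusted p = 0.00156) and was called whichever library was left out, from -0.91 to -0.69. All 12 cardiomyocyte marker genes were also lower in the Des-/- non-swim group, with a median log2 change of -2.13, and their part in the lower levels of Akt2, Cited4 and Erbb4 was not tested.

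Cebpb (ENSMUSG00000056501, chr2:167688915-167690418, plus strand), which encodes C/EBPβ, was 52.2, 55.4 and 76.9 CPM in the Des+/+ non-swim libraries and 49.3, 42.2 and 202 CPM in the Des-/- non-swim libraries. Replicate 3 was thus 4.43 times the mean of the other 2 Des-/- libraries, and it alone decided the sign. The log2 change was 0.67 (SE 0.68, edgeR adjusted p = 0.481) with all libraries and -0.36 (edgeR adjusted p = 0.277) with both Des-/- replicate 3 libraries left out. Its single exon overlaps Tmem189 on the other strand. Reads were counted in reverse-strand mode, which keeps these genes apart only if the library kit was directional. The study's methods say it was and the labels say it was not.

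Cited4 (ENSMUSG00000070803, chr4:120666572-120667820, plus strand) was 12, 32.6 and 14.7 CPM in the Des+/+ non-swim libraries and 4.03, 6.11 and 3.76 CPM in the Des-/- non-swim libraries. The groups did not overlap and replicate 2 of the Des+/+ group was the highest of all 12 libraries. The mean was 19.8 ± 11.2 against 4.63 ± 1.29 CPM (SD, n = 3 each), 4.26-fold lower in Des-/- (log2 -2.09, SE 0.42, edgeR adjusted p = 0.00412). It was called whichever library was left out, from -2.35 to -1.53.

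Nrg1 (ENSMUSG00000062991, chr8:31814551-32884029, minus strand), the ErbB ligand, was scarce: its 3 Des+/+ non-swim libraries held 7, 3 and 16 reads (0.825, 0.350 and 1.44 CPM) and its 3 Des-/- non-swim libraries held 24, 16 and 23 reads (2.55, 1.81 and 2.01 CPM). For comparison, 3 reads, taken as the floor of detection, correspond to between 0.249 and 0.694 CPM of the unscaled library. The groups did not overlap, but the log2 change of 1.24 (SE 0.53) did not pass (edgeR adjusted p = 0.0962). Erbb2 (ENSMUSG00000062312, chr11:98412470-98437716, plus strand), the co-receptor, was 32.2 to 40.3 CPM in the Des+/+ and 38.2 to 44.1 CPM in the Des-/- non-swim libraries, a log2 change of 0.26 (SE 0.18) that did not pass. Erbb2 shares bases with Mien1 on the other strand.

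Erbb4 (ENSMUSG00000062209, chr1:68032186-69108059, minus strand), the neuregulin receptor of the cardiomyocyte, holds 8 small gene models on its own strand in the annotation. It was 13.9, 14.5 and 7.48 CPM in the Des+/+ non-swim libraries and 2.23, 7.01 and 0.786 CPM in the Des-/- non-swim libraries. The groups did not overlap, but replicate 2 of the Des-/- group was close to the lowest Des+/+ library, and replicate 3, with 9 reads, was the lowest of all 12. The mean was 12 ± 3.88 against 3.34 ± 3.26 CPM (SD, n = 3 each), 3.601-fold lower in Des-/- (log2 -1.85, SE 0.61, edgeR adjusted p = 0.0373). The call was the least stable of the 4: it was lost when any of 6 libraries was left out, with log2 changes from -2.99 to -1.37, and with both Des-/- replicate 3 libraries left out (-1.29, edgeR adjusted p = 0.0545).

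The next comparison was made between the genotypes after swimming. It set the other 6 libraries against each other, although all 12 entered the model and so its estimate of the spread: Igf1 lost its call without Des+/+ non-swim replicate 1 (edgeR adjusted p = 0.0517) or 3 (0.0567), and Erbb4 gained one without Des-/- non-swim replicate 3 (0.0443). Here Igf1 and Nrg1 were higher and Akt2 was lower in Des-/- mice, 3 of the 10 genes, where 10.6% of all genes passed, 5.01% higher and 5.57% lower. Groups did not overlap for 6 of the 10 genes and for 35.9% of all genes. DESeq2 called the same 3 and Akt1 (adjusted p = 0.0167), where it called 15.9% of all genes. Leaving out both Des-/- replicate 3 libraries, edgeR called Igf1, Nrg1 and Cebpb, and 11.9% of all genes. The calls were less stable than those without swimming: no gene was called when Des+/+ swim replicate 1 or 3 or Des-/- swim replicate 1 was left out, Igf1 alone when Des-/- swim replicate 2 was, and Nrg1 alone when Des-/- swim replicate 3 was. Of the marker genes, 1 of 12 cardiomyocyte genes passed as lower, and all 12 had log2 changes below 0 (median -0.80, 6 without overlap). Of 12 fibroblast genes 2 passed as higher and all 12 were above 0 (median 0.92), of 12 macrophage genes 1 passed and 11 were above 0 (median 1.17), and of 12 genes of the response to cell isolation 8 passed and all were above 0 (median 1.31). The part of these markers in the calls on Igf1, Nrg1 and Akt2 was not tested.

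Igf1 was 21.0, 12.2 and 27.6 CPM in the Des+/+ swim libraries and 44.8, 36.5 and 137 CPM in the Des-/- swim libraries. Every Des-/- swim library was above every Des+/+ swim library, and replicate 3 was 3.37 times the mean of the other 2. The log2 change was 1.85 (SE 0.50, 3.61-fold, edgeR adjusted p = 0.0378), and 1.03 with both Des-/- replicate 3 libraries left out (edgeR adjusted p = 0.0361). It was called in 5 of 12 fits that left out 1 library, with adjusted p-values from 0.0219 to 0.116. Across both activity states, the lowest of the 6 Des-/- libraries held 36.5 CPM of Igf1 and the highest of the 6 Des+/+ libraries 35.2 CPM. How many of all genes separate the genotypes in this way was not counted.

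Nrg1 was 0.354, 1.18 and 0.711 CPM in the Des+/+ swim libraries (3, 11 and 5 reads) and 4.69, 4.81 and 2.46 CPM in the Des-/- swim libraries (33, 22 and 16 reads). The mean rose from 0.747 ± 0.412 to 3.99 ± 1.32 CPM (SD, n = 3 each), a log2 change of 2.37 (SE 0.55, 5.18-fold, edgeR adjusted p = 0.0250). It was called in 8 of 12 fits that left out 1 library, with log2 changes from 2.04 to 2.89. Across both activity states, its 6 Des-/- libraries (1.81 to 4.81 CPM) lay above its 6 Des+/+ libraries (0.350 to 1.44 CPM). Des-/- non-swim replicate 2, Des-/- swim replicate 3 and Des+/+ non-swim replicate 3 held 16 reads each. Their order came from the scaled library totals. How many of all genes separate the genotypes in this way was not counted. Endothelial cells are the known cardiac source of Nrg1, and the summed CPM of 12 endothelial markers was 8589 to 12462 in the Des+/+ swim and 8536 to 11096 in the Des-/- swim group, with 1 of the 12 called. Nerve is another known source, and 8 markers of its Schwann cells summed to 39.9, 56.8 and 51.9 CPM in the Des+/+ swim and 51.7, 92.0 and 86.1 CPM in the Des-/- swim libraries. Of these 8 genes 0 were called in edgeR after swimming, 2 had an unadjusted p under 0.05, and 7 had log2 changes above 0, with a median of 0.75 against 0.02 over all genes. Their part in the Nrg1 result was not tested.

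Akt2 was 116, 98.3 and 109 CPM in the Des+/+ swim libraries and 80.6, 71.9 and 68.9 CPM in the Des-/- swim libraries. The groups did not overlap, and the difference was 1.46-fold (log2 -0.55, SE 0.14, edgeR adjusted p = 0.0311). Its size held when single libraries were left out, from -0.62 to -0.49, but it was called in 7 of those 12 fits, and it was not called with both Des-/- replicate 3 libraries left out (-0.49, edgeR adjusted p = 0.0596) or with upper-quartile scaling (-0.45, edgeR adjusted p = 0.0551).

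The remaining 7 genes did not pass after swimming. Erbb4 was 8.14, 5.56 and 8.25 CPM in the Des+/+ swim and 2.56, 3.50 and 1.54 CPM in the Des-/- swim libraries. These groups did not overlap, and the log2 change of -1.54 (SE 0.64, edgeR adjusted p = 0.129) had the sign of that without swimming. Cited4 was 7.55, 5.45 and 5.83 CPM in the Des+/+ swim and 7.10, 5.68 and 2.92 CPM in the Des-/- swim libraries. These overlapped, with a log2 change of -0.26 (SE 0.43). Igf1r was 77.9 to 92.7 CPM in the Des+/+ and 105 to 122 CPM in the Des-/- swim libraries, without overlap, but its log2 change of 0.42 (SE 0.17) gave an edgeR adjusted p of 0.126. Akt1 was 363 to 399.8 CPM and 293 to 301 CPM, also without overlap, with a log2 change of -0.35 (SE 0.13, edgeR adjusted p = 0.0909). Pik3ca (103 to 137 against 101 to 120.3 CPM) and Erbb2 (34.3 to 43.4 against 30.6 to 49.0 CPM) overlapped.

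Cebpb after swimming again turned on replicate 3. It was 99.7, 55.2 and 85.3 CPM in the Des+/+ swim libraries and 34.7, 39.1 and 189 CPM in the Des-/- swim libraries. The log2 change was 0.13 (SE 0.68, edgeR adjusted p = 0.912) with all libraries. With both Des-/- replicate 3 libraries left out it was -1.11 and passed (edgeR adjusted p = 0.0218). It was called in 0 of 12 fits that left out 1 library, with log2 changes from -1.12 to 0.51 (lowest edgeR adjusted p = 0.261). Of the 2 libraries left out together, that of the non-swim group is outside this comparison. The macrophage marker sum of those 2 libraries, given above, was high as well, and its part in the Cebpb values was not tested.

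**Figure D2:**
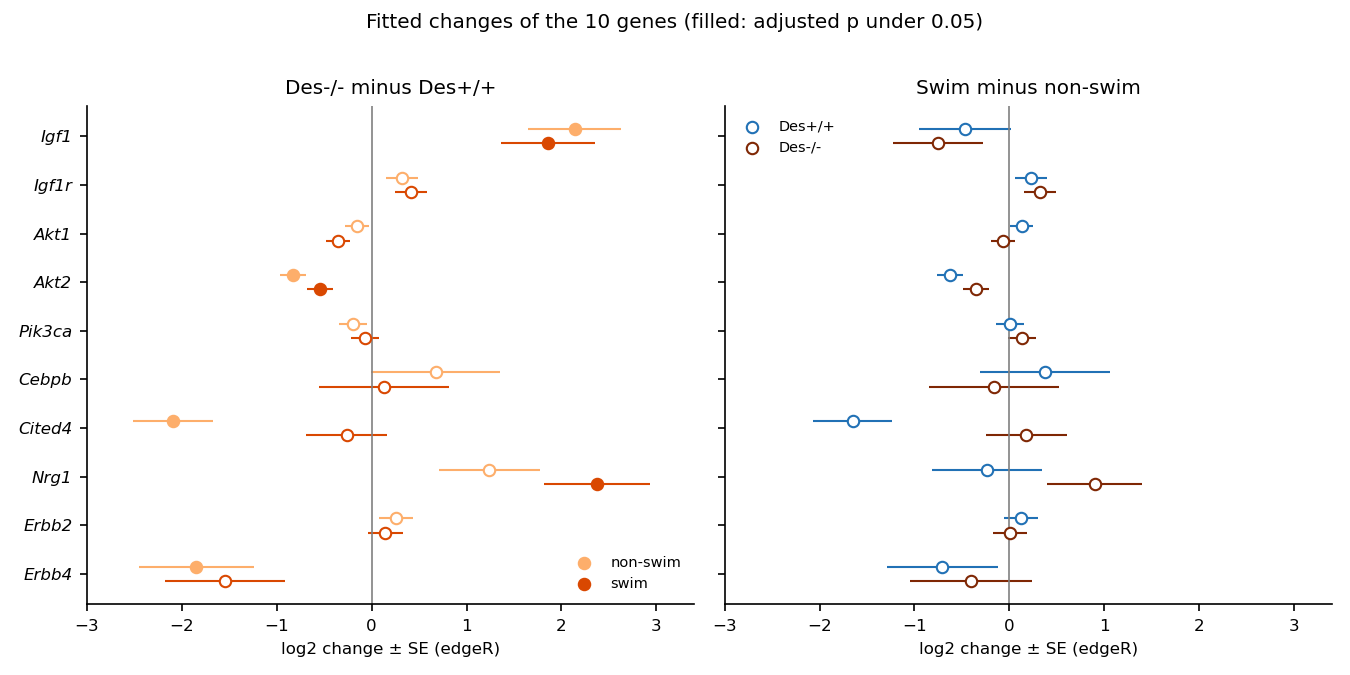
Fitted log2 changes of the 10 genes with their standard errors, on the left Des-/- minus Des+/+ mice (non-swim and swim) and on the right swim minus non-swim (Des+/+ and Des-/-). Filled points passed at an adjusted p under 0.05: Igf1, Akt2, Cited4 and Erbb4 without swimming, and Igf1, Akt2 and Nrg1 after swimming, and none on the right.

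The effect of swimming was taken within 1 genotype at a time. In Des+/+ mice 0 of the 10 genes passed in edgeR, where 12 of all genes (0.0912%) did, and 2 of the 10 had an unadjusted p under 0.05, as did 20.5% of all genes. These were Akt2 and Cited4, both with negative changes. Akt2 was 148, 198 and 154 CPM without and 116, 98.3 and 109 CPM after swimming, without overlap (log2 -0.63, SE 0.14, edgeR adjusted p = 0.0757). Cited4 was 12, 32.6 and 14.7 CPM without and 7.55, 5.45 and 5.83 CPM after swimming, also without overlap (log2 -1.65, SE 0.42, edgeR adjusted p = 0.0910). Groups did not overlap for these 2 of the 10 genes and for 31.3% of all genes. DESeq2 called both (adjusted p = 0.00302 for Akt2 and 0.00811 for Cited4), where it called 6.54% of all genes. So did edgeR with both Des-/- replicate 3 libraries left out (adjusted p = 0.0403 and 0.0322), where it called 5.62%, and the study's filter (unadjusted p of at most 0.05, absolute log2 change of at least 0.6 and mean count of at least 20), which 10.3% of all genes passed. Those Des-/- libraries belong to neither group compared here and entered only the filtering, the scaling and the estimate of the spread. With only the compared libraries edgeR called neither gene (adjusted p = 0.0741 for Akt2 and 0.0612 for Cited4). Neither was called with upper-quartile or RLE scaling, no filter, a mean count of at least 20, the replicate block or any 1 library left out. These comparisons share the Des+/+ non-swim libraries with the first one, so that the high Akt2 and Cited4 levels of that group enter both. The cardiomyocyte marker sum was also lower in the Des+/+ swim than in the Des+/+ non-swim group, and its part in these differences was not tested.

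In Des-/- mice 0 of the 10 genes passed in edgeR or in DESeq2, where 3 of all genes (0.0228%) did in edgeR and 2.45% in DESeq2. Akt2 alone had an unadjusted p under 0.05, as did 16.7% of all genes. It was 91.8, 99.1 and 90.9 CPM without and 80.6, 71.9 and 68.9 CPM after swimming, with a log2 change of -0.35 (SE 0.14, edgeR adjusted p = 0.257). These groups did not overlap, as was the case for 19.4% of all genes. Igf1 was 92.7, 93.7 and 181 CPM without and 44.8, 36.5 and 137 CPM after swimming. The groups overlapped, with a log2 change of -0.75 (SE 0.47, edgeR adjusted p = 0.427). Taken by replicate number, to which the labels give no meaning, Igf1 was lower after swimming in each of the 3 pairs of libraries. With the replicate block the change was -0.86 (edgeR adjusted p = 0.274). Its size turned on replicate 3: it was -0.35 without that of the non-swim group, -1.59 without that of the swim group and -1.18 without both, none of which passed (edgeR adjusted p = 0.843, 0.0908 and 0.113). Nrg1 was 2.55, 1.81 and 2.01 CPM without and 4.69, 4.81 and 2.46 CPM after, with a log2 change of 0.90 (SE 0.50, edgeR adjusted p = 0.379).

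Whether the response to swimming differed between the genotypes was tested as the interaction. It passed for 0 of the 10 genes and 0% of all genes in edgeR. Among the 10, Cited4 alone had an unadjusted p under 0.05, as did 16.3% of all genes: its log2 change with swimming was -1.65 in Des+/+ and 0.18 in Des-/- mice, a difference of 1.83 (SE 0.60, edgeR adjusted p = 0.210). DESeq2, which called 2.54% of all genes and none of the 10, gave no adjusted p for it. Cited4 passed the study's filter, put on the edgeR values, as did 13.1% of all genes. For Nrg1 the difference was 1.13 (SE 0.77) and for Akt2 0.28 (SE 0.19).

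Because a ratio of 2 genes within a library does not depend on how libraries are scaled, Akt2 was also set against Akt1, and Erbb4 against Erbb2, in reads per kb of exon. Akt2 was 0.278, 0.314 and 0.236 of Akt1 in the Des+/+ non-swim libraries, 0.166, 0.156 and 0.167 in the Des+/+ swim, 0.176, 0.187 and 0.158 in the Des-/- non-swim and 0.158, 0.138 and 0.131 in the Des-/- swim libraries. The Des+/+ non-swim group stood above the other 3 groups without overlap. On the log2 scale the ratio differed by -0.43 between Des-/- and Des+/+ mice and by -0.52 between swim and non-swim mice, each averaged over the other factor (exact permutation test within the other factor, two-sided, p = 0.010 for both, adjusted p = 0.0133 over 4 tests). The genotype difference was -0.66 without and -0.20 after swimming.

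Erbb4 was 0.180, 0.152 and 0.0980 of Erbb2 in the Des+/+ non-swim libraries and 0.0791, 0.0643 and 0.101 in the Des+/+ swim libraries. It was 0.0213, 0.0683 and 0.008685 of Erbb2 in the Des-/- non-swim and 0.0231, 0.0301 and 0.0212 in the Des-/- swim libraries. Replicate 2 of the Des-/- non-swim group was the only Des-/- library to reach the Des+/+ range. The log2 ratio differed by -2.11 between Des-/- and Des+/+ mice (exact permutation test, two-sided, p = 0.005, the smallest that 400 arrangements can give; adjusted p = 0.0133). The difference with swimming, -0.35, did not pass (exact p = 0.505). Since these ratios rest on the counts tested above, they are the same libraries on another scale and not further evidence.

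**Figure D3:**
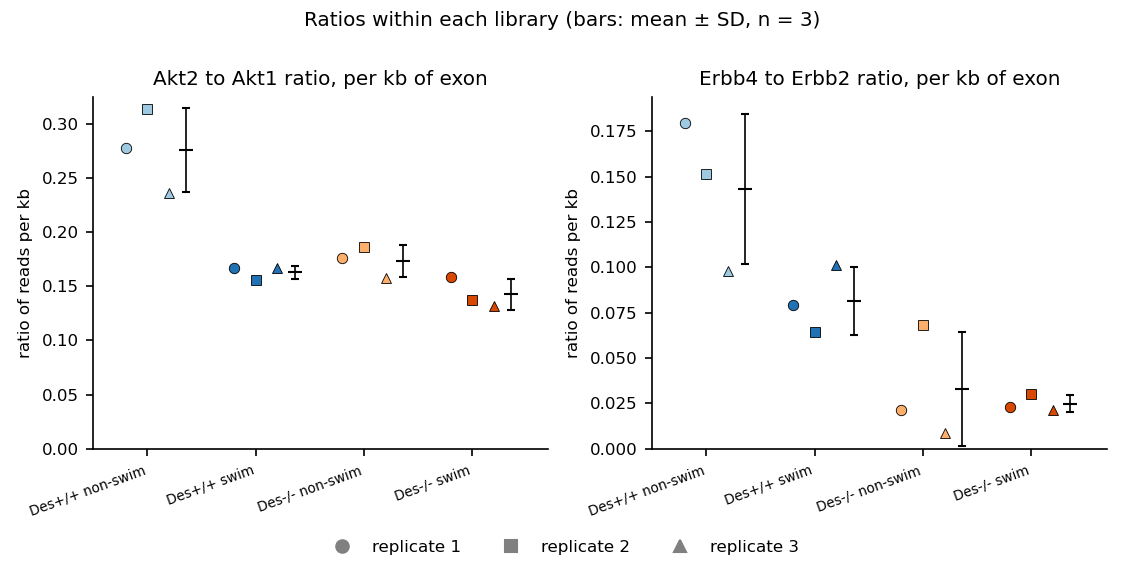
Ratio of reads per kb of exon within each library for Akt2 to Akt1 (left) and Erbb4 to Erbb2 (right), on axes that start at 0, with the 4 groups on the horizontal axis and mean ± SD of the 3 libraries beside the points. The mean Akt2 to Akt1 ratio was 0.276 in the Des+/+ non-swim group against 0.142 to 0.173 in the other 3, and the mean Erbb4 to Erbb2 ratio fell from 0.143 and 0.0816 in the Des+/+ groups to 0.0328 and 0.0248 in the Des-/- groups.

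Set against each other per kb of exon, the 10 genes kept much of their order. Akt1 had the highest mean in every group, from 72.7 to 92.7 CPM per kb, followed by Cebpb, from 40.9 to 65.1 CPM per kb. The ranges of Akt1 and Cebpb did not overlap in the Des+/+ groups and did in the Des-/- groups. That overlap came from replicate 3 alone, where Cebpb was 4.43 (non-swim) and 5.12 (swim) times the mean of replicates 1 and 2. In the Des+/+ non-swim group the level then descended through Akt2 (23.4 ± 3.84 CPM per kb), Cited4 (15.8 ± 8.95), Pik3ca (13.0 ± 1.64), Erbb2 (6.73 ± 0.88), Igf1r (4.34 ± 0.49), Igf1 (2.82 ± 0.64) and Erbb4 (0.968 ± 0.314) to Nrg1 (0.0843 ± 0.0529; SD, n = 3). In that order Akt2 with Cited4, and Cited4 with Pik3ca, were neighbours whose ranges overlapped. Igf1 moved up from the eighth place in the Des+/+ non-swim group to the fourth in the Des-/- non-swim group, at 12.4 ± 5.14 CPM per kb. Its range there overlapped those of Akt2 and Pik3ca through replicate 3 alone, which was 1.95 times the mean of replicates 1 and 2. Replicates 1 and 2 lay below both ranges, so the fourth place also rested on replicate 3. Erbb4, at 0.205 ± 0.079 CPM per kb, was below Nrg1, at 0.385 ± 0.128, in the Des-/- swim group, with overlapping ranges.

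For the 5 genes called in either genotype comparison, the most similar of 12620 other genes were sought by the root mean square difference of centred log2 CPM over the 12 libraries, in log2 units. Nearest to Igf1 were Ptn (0.28), Slc1a3 (0.32) and Enpp1 (0.32), where Igf1 itself had a spread of 1.14. Nearest to Akt2 were Prune1 (0.086), Oat (0.096) and Tspan3 (0.11), against a spread of 0.44. Cited4 was most like Cdkl1 (0.29), Lrpprc (0.30) and Ube2ql1 (0.31), and Erbb4 most like Plaat1 (0.30), Srl (0.30) and Pip5k1b (0.31), with spreads of 0.89 and 1.15. The nearest genes to Nrg1, Tmc4 (0.50), Htra4 (0.51) and Acap1 (0.51), stood farther from it than the nearest genes of the other 4 did from theirs, against its own spread of 1.00.

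Other genes of the same pathways were then counted from lists of textbook members, which were chosen with earlier results of these data known. Of 41 tested genes of the IGF-PI3K-Akt-mTOR list, 7 were higher and 10 lower in Des-/- mice without swimming, 17 in all, beside the 32.0% of all genes. Their median log2 change was -0.13 against 0.04 over all genes. The genes that rose were 4 IGF-binding proteins (Igfbp3, Igfbp4, Igfbp6 and Igfbp7), which bind IGF outside the cell, the phosphoinositide 3-kinase subunits Pik3cd and Pik3cg, best known from white blood cells, and the phosphatase Phlpp2. Those that fell included the insulin receptor Insr, the receptor substrate Irs1, the regulatory subunit Pik3r1, the kinases Pdpk1 and Mtor, the mTOR regulators Tsc1, Tsc2 and Rheb, the cap-binding factor Eif4e and its inhibitor Eif4ebp1. After swimming 2 were higher (Igfbp6 and Rps6kb2) and 5 lower (Irs1, Pik3r1, Pdpk1, Rheb and Eif4e), beside the 10.6% of all genes, with a median of -0.23 against 0.02 over all genes. Leaving out both Des-/- replicate 3 libraries, 14 of the list were called without and 8 after swimming, beside 28.0% and 11.9% of all genes. No gene of the list was called for swimming in either genotype or for the interaction in edgeR, where 8, 5 and 5 of the 41 had an unadjusted p under 0.05, beside 20.5%, 16.7% and 16.3% of all genes. The 6 genes called after swimming that are drawn in the plot of pathway changes were called in 6 to 11 of 12 fits that left out 1 library. The fewest were for Pdpk1 (log2 -0.52, SE 0.12, edgeR adjusted p = 0.0260), which was not called with both Des-/- replicate 3 libraries left out either (edgeR adjusted p = 0.0556).

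Igfbp6 showed the largest rise of this list in both comparisons. It was 41.1, 34.2 and 38.0 CPM in the Des+/+ non-swim and 152, 127 and 129 CPM in the Des-/- non-swim libraries (log2 1.85, SE 0.31, edgeR adjusted p = 0.00173), and 33.1 to 51.1 CPM against 78.9 to 223 CPM after swimming (log2 1.68, SE 0.31, edgeR adjusted p = 0.0130). Igfbp4 was 235, 196 and 265 CPM in the Des+/+ and 701, 512 and 615 CPM in the Des-/- non-swim libraries (log2 1.39, SE 0.19). Neither pair of groups overlapped, and fibroblast markers were higher in the same libraries. Pik3cg, at 2.34 to 3.50 CPM in the Des+/+ and 4.88, 5.66 and 17.5 CPM in the Des-/- non-swim libraries (log2 1.78, SE 0.57), and Pik3cd, at 17.9 to 19.0 CPM and 27.7, 25.9 and 81.4 CPM (log2 1.29, SE 0.39), were highest in the replicate 3 library in which macrophage markers were highest. Leaving out both Des-/- replicate 3 libraries, the log2 change of Pik3cg was 1.02 (edgeR adjusted p = 0.0884) and that of Pik3cd 0.61 (edgeR adjusted p = 0.0214). Each was called in 8 of 12 fits that left out 1 library, and both lost the call without Des-/- non-swim replicate 3 alone, at 0.95 and 0.55.

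Among the genes that fell, Insr was 179, 185 and 155 CPM in the Des+/+ and 57.2, 101 and 75.5 CPM in the Des-/- non-swim libraries (log2 -1.15, SE 0.19, edgeR adjusted p = 0.00143). Irs1, a docking protein of the insulin and the IGF1 receptor, was 52.9, 45.4 and 58.3 CPM against 26.3, 33.9 and 18.6 CPM without swimming (log2 -0.99, SE 0.26), and 30.3 to 35.1 CPM against 9.84 to 21.2 CPM after swimming (log2 -1.08, SE 0.27, edgeR adjusted p = 0.0304), where it was called in 7 of 12 fits that left out 1 library. Eif4e, which binds the cap of messenger RNA for translation, was 122, 133 and 120.4 CPM against 52.6, 68.9 and 55.9 CPM without swimming (log2 -1.08, SE 0.15, edgeR adjusted p = 0.000903), and lower after swimming also (log2 -0.85, SE 0.15, edgeR adjusted p = 0.0124). None of these groups overlapped. Tsc2 was lower without swimming (log2 -0.72, SE 0.20, edgeR adjusted p = 0.0184), but not with both Des-/- replicate 3 libraries left out (-0.57, edgeR adjusted p = 0.0620). It had a log2 change of -0.02 (SE 0.20) after swimming. The 12 cardiomyocyte markers were lower too, with a median log2 change of -2.13 without and -0.80 after swimming. Their part in the lower levels of these genes was not tested.

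Of 17 tested genes of the neuregulin-ErbB list, 3 were higher and 0 lower in Des-/- mice without swimming, beside 32.0% of all genes. After swimming 0 were called in edgeR, beside 10.6% of all genes, and 4 had an unadjusted p under 0.05, beside 30.5%. Their median log2 change was 0.18 without and -0.22 after swimming, against 0.04 and 0.02 over all genes. The neuregulins Nrg2, Nrg3 and Nrg4 were too low to be tested. Of the 3 that rose, the adaptor Shc1 changed by 0.54 (SE 0.13, edgeR adjusted p = 0.0109) and was called whichever library was left out. Egfr, the receptor for epidermal growth factor, was 13.7, 16.6 and 13.0 CPM in the Des+/+ and 25.0, 24.1 and 62.1 CPM in the Des-/- non-swim libraries (log2 1.37, SE 0.48, edgeR adjusted p = 0.0493). It was called in 4 of 12 fits that left out 1 library, and at 0.84 with both Des-/- replicate 3 libraries left out (edgeR adjusted p = 0.0126). Ereg, a ligand of Egfr and Erbb4, was 0.117 to 0.589 CPM in the Des+/+ and 1.49, 1.47 and 40.1 CPM in the Des-/- non-swim libraries. Its call (edgeR adjusted p = 0.0232) rested on replicate 3 and was lost with both Des-/- replicate 3 libraries left out (edgeR adjusted p = 0.0772).

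Of 9 tested genes of the C/EBP-CITED list, 1 was higher and 2 were lower without swimming, beside 32.0% of all genes, and 1 was lower after it, beside 10.6%. The median log2 change was 0.04 without and 0.08 after swimming, against 0.04 and 0.02 over all genes. Cebpa, a relative of Cebpb that is known from liver and fat, was 10.95, 9.34 and 16.2 CPM in the Des+/+ and 24.0, 17.4 and 137 CPM in the Des-/- non-swim libraries (log2 2.29, SE 0.66, edgeR adjusted p = 0.0219). Its change was 0.83 with both Des-/- replicate 3 libraries left out (edgeR adjusted p = 0.0335). The macrophage marker sum was also highest in Des-/- non-swim replicate 3, and its part in the Cebpa values was not tested. Cited2, a relative of Cited4, fell by 0.81 on the log2 scale (SE 0.23, edgeR adjusted p = 0.0196) without swimming and had a log2 change of -0.04 (SE 0.23) after it. Srf, a transcription factor of muscle genes and a known partner of C/EBPβ, was 97.8, 130.2 and 95.7 CPM in the Des+/+ and 61.1, 64.7 and 73.9 CPM in the Des-/- non-swim libraries. It was lower in both comparisons, by log2 changes of -0.70 (SE 0.14, edgeR adjusted p = 0.00395) and -0.65 (SE 0.14, edgeR adjusted p = 0.0198). The part of the lower cardiomyocyte markers in the Cited2 and Srf results was not tested.

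**Figure D4:**
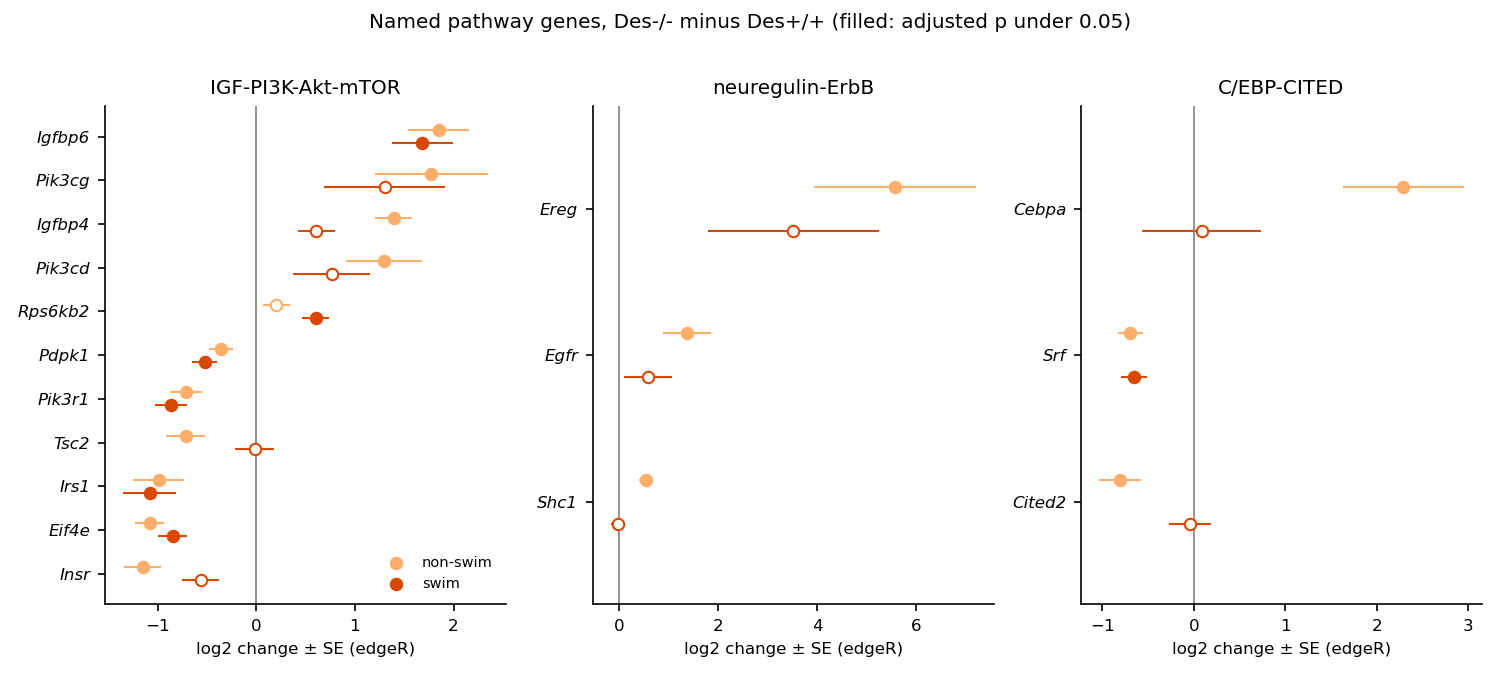
Fitted log2 changes with standard errors, Des-/- minus Des+/+, of the named genes of the IGF-PI3K-Akt-mTOR, neuregulin-ErbB and C/EBP-CITED lists, without swimming (light) and after swimming (dark), each panel with its own axis. Filled points passed at an adjusted p under 0.05; Igfbp6, Pdpk1, Pik3r1, Irs1, Eif4e and Srf passed in both comparisons.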

How the data were processed

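Poly-A RNA of cardiomyocytes was sequenced in 12 libraries, 3 in each of 4 groups taken from the sample labels. The deposited values are raw counts of reads per gene, made by the authors from single-end reads with HISAT2 2.2.1, SAMtools 1.13 and HTSeq-count in reverse-strand mode on GRCm38 and not normalised. The library kit is unstranded by the labels but directional by the study's methods. Reads assigned to genes ranged from 4320819 to 12072443 per library, and reads in no gene (34.0% to 64.5% of those counted) were left out. Of 21493 genes, 21488 matched GENCODE M21, from which positions and exon lengths were taken.

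In edgeR 4.0.16 (R 4.3.3), genes were filtered by filterByExpr (13158 kept) and libraries scaled by TMM. All 12 libraries entered a model of 4 group means, with 8 degrees of freedom left, and 5 contrasts were given quasi-likelihood tests, with Benjamini-Hochberg adjustment over all tested genes and calls at an adjusted p under 0.05. Standard errors are the absolute log2 change over the root of F. CPM use TMM-scaled totals, and exon length is the union over transcripts. Ratios (0.5 added to each count) were tested by exact two-sided permutation within the other factor (scipy 1.17.1), adjusted over 4 tests. The alternatives were upper-quartile and RLE scaling, no filter, a mean count of at least 20, DESeq2 1.42.0, the compared libraries only, a replicate block, the study's filter (unadjusted p of at most 0.05, absolute log2 change of at least 0.6, mean count of at least 20), each library left out, and, chosen after seeing the data, both Des-/- replicate 3 libraries left out. The study's filter was put on the edgeR values of the main model, whereas the study put it on DESeq2 values. The model was tested on simulated data first.

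The members and lists were chosen with earlier results of these data known. Named are all members, the first 4 called genes a direction of each pathway list by size of change among those with a group mean of at least 20 scaled counts, and the 3 genes most like each called member. Replicate numbers are shared between groups. Deviations of same-numbered libraries correlated above 0.1 in every pair for swimming in Des-/- mice (0.365, 0.316 and 0.602). The other comparisons did not show this. Replicates 1 and 2 of the Des-/- groups also correlated across numbers (0.299 and 0.292), and replicate 3 correlated negatively with both (-0.414 to -0.470). The correlations therefore cannot tell a pairing by number from replicate 3 standing apart. The labels do not say what a number stands for. P-values measure the spread between pooled libraries. Promoter windows and motif counts were taken from RefSeq on GRCm38.p6, and the window of Nrg1 was not used here. The floor of detection is a fixed 3 reads and takes no account of the spread between libraries.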

Additional observations from a re-analysis of the deposited data

How the results depend on the processing

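The calls of Igf1, Akt2 and Cited4 without swimming held under every alternative run, whereas those after swimming and that of Erbb4 did not. Of the 10 genes, 4 were called without swimming in the main model, and 3 or 4 when single libraries were left out. After swimming 3 were called, and 0 to 4 when single libraries were left out. For swimming in Des+/+ mice 0 were called, against 2 (Akt2 and Cited4) with the study filter, with DESeq2 and with both Des-/- replicate 3 libraries left out, and for the interaction 0 against 1 (Cited4) with the study filter. With only the compared libraries, Igf1 after swimming (adjusted p = 0.0620) and Erbb4 without swimming (0.0952) were not called by edgeR and Erbb4 after swimming was (0.0492). Nrg1 was not tested with a mean count of at least 20. With a replicate block, 4 and 3 of the 10 genes were called in the genotype comparisons and 0 for swimming in either genotype or for the interaction, the same genes as without it. After swimming, Akt2 was not called by edgeR with upper-quartile scaling (adjusted p = 0.0551), and DESeq2 also called Akt1 (adjusted p = 0.0167). With both Des-/- replicate 3 libraries left out, Igf1r was called and Erbb4 was not without swimming. In that setting Cebpb was called and Akt2 was not after swimming. Over all genes, upper-quartile scaling moved the median log2 change from 0.04 to 0.14 without and from 0.02 to 0.12 after swimming.

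For the IGF-PI3K-Akt-mTOR list, 17 genes were called without swimming, against 11 with only the compared libraries and 9 to 19 when a library was left out. After swimming 7 were called, against 11 with DESeq2 and 0 at the lowest when a library was left out. Swimming in Des+/+ mice called 0, against 3 with the study filter and 1 each with RLE scaling, DESeq2, only the compared libraries, both Des-/- replicate 3 libraries left out and, at the highest, a library left out. Swimming in Des-/- mice called 0, against 4 with the study filter and 3 with DESeq2, and the interaction 0 against 4 with the study filter. For the neuregulin-ErbB list, leaving out a library gave 1 to 6 calls in place of 3 without swimming and up to 1 in place of 0 after it. Swimming in Des+/+ mice called 2 with DESeq2 and 1 each with the study filter, RLE scaling, no filter, only the compared libraries, both Des-/- replicate 3 libraries left out and, at the highest, a library left out, in place of 0. Swimming in Des-/- mice called 2 with the study filter and with DESeq2, and 1 with no filter, with both Des-/- replicate 3 libraries left out and, at the highest, with a library left out; the interaction called 1 with the study filter. For the C/EBP-CITED list, leaving out a library gave as few as 1 call in place of 3 without swimming and 0 to 2 in place of 1 after it, where DESeq2 and both Des-/- replicate 3 libraries left out gave 2. The study filter gave 1, 2 and 3 for swimming in Des+/+, swimming in Des-/- and the interaction, and DESeq2 and both Des-/- replicate 3 libraries left out each gave 1 for swimming in Des+/+, all in place of 0. Ereg, Egfr, Pik3cg, Pik3cd, Tsc2 and Cebpa without swimming each lost the call without Des-/- non-swim replicate 3 alone.

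Changes of sign arose in values that did not pass with all libraries. The cause was not tested. For Pik3ca after swimming the log2 change was 0.028 with upper-quartile scaling, 0.014 with both Des-/- replicate 3 libraries left out and -0.16 to 0.047 when single libraries were left out, against -0.068. For Pik3ca with swimming in Des+/+ mice it was -0.0039 with the replicate block and -0.11 to 0.092 when single libraries were left out, against 0.0037. Cebpb was -0.36 without swimming and -1.11 after it with both Des-/- replicate 3 libraries left out, and -0.31 after swimming with the replicate block. When single libraries were left out it was -0.42 to 1.03 without swimming, -1.12 to 0.51 after it and -1.41 to 0.94 for swimming in Des-/- mice, with each extreme of the opposite sign set by Des-/- replicate 3. Cited4 after swimming was 0.047 with both Des-/- replicate 3 libraries left out and -0.57 to 0.032 when single libraries were, and for swimming in Des-/- mice -0.12 to 0.47. Leaving out single libraries gave -0.75 to 0.35 for Nrg1 with swimming in Des+/+ mice and -0.87 to 0.74 for Erbb4 with swimming in Des-/- mice. Erbb2 with swimming in Des-/- mice was -0.0098 with no filter, -0.012 with the replicate block and -0.11 to 0.19 when single libraries were left out. The log2 Erbb4 to Erbb2 ratio with swimming was -0.70 to 0.029 when single libraries were left out, above 0 only without Des-/- non-swim replicate 2.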
